A study of Mus musculus with 16 samples.

Results

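Tslp, thymic stromal lymphopoietin, and its near relations were followed in 16 libraries of primary mouse astrocytes. The genes are Tslp, Il33, Il7 and Crlf2, which are 4 of the 16707 genes in the deposited table of log2 CPM, the reads of a gene relative to a fixed number of reads in its library. Tslp was chosen by its measured rise in stimulated Nlrx1-/- cells, so its values there are given as a description without a test, and the other 3 genes were taken along as its relations. Il33 is an alarmin cytokine like Tslp, whereas Il7 is a cytokine and Crlf2 a receptor chain, and neither is usually called an alarmin. Astrocytes were selected with anti-ACSA-2 beads from whole brains, without meninges, of C57BL/6J WT and Nlrx1-/- pups at postnatal day 6. The Nlrx1-/- mice are global knockouts. Cultures were grown in serum-free medium with heparin-binding EGF and received water (vehicle) or a mixture of 500 ng/mL LPS (a component of bacterial outer membranes) and 10 ng/mL IFNγ for 24 h. Each of 4 litters per genotype gave a vehicle and a stimulated library, and all groups share the ACSA-2 selection and culture.

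TSLP and IL-33 are cytokines that barrier and stromal cells release on damage or on sensing microbes, and both are known for starting type 2 immune responses. TSLP signals through a pair of chains, the TSLP receptor encoded by Crlf2 and the IL-7 receptor α chain encoded by Il7r, which IL-7 also uses together with the common γ chain encoded by Il2rg. JAK kinases and STAT5 act below these receptors. IL-33 is stored in the nucleus and acts on the receptor chain encoded by Il1rl1 with its partner Il1rap, and in the mouse brain and spinal cord it is made by oligodendrocytes and astrocytes.

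The libraries held 27259420 to 43752903 reads assigned by Salmon, the authors' quantifier. Nlrx1 lay between 4.08 and 4.44 log2 CPM in the WT libraries and between 1.09 and 2.96 in the Nlrx1-/- libraries, so no library went against its label, although 76 to 312 reads per Nlrx1-/- library remained. Which exons the deletion takes out is not given in the sources used here. All 9 astrocyte markers were in the deposited table. Of 10 microglia and macrophage markers, 7 stayed below 1 TPM, a level scaled for transcript length, in every library, among them Aif1, Cx3cr1, Csf1r and Ptprc. Among the lymphoid and mast cell markers, Cpa3 and Fcer1a had 0 reads throughout. Oligodendrocyte lineage RNA was present, with summed levels of 1340 to 2850 TPM over 9 markers, and the astrocyte markers summed to 2480 to 6150 TPM. Most of the oligodendrocyte sum came from Olig1, a lineage factor gene, at 1160 to 2570 TPM. In these bulk libraries fewer cells of a type and less RNA per cell cannot be told apart.

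Tslp was close to absent in vehicle and was higher in the stimulated library of every litter. In WT vehicle its level was -2.73, -1.95, -3.67 and -1.92 log2 CPM in litters 1 to 4, which rested on 3, 6, 1 and 8 reads. In WT LPS + IFNγ it was 1.20, 1.21, -0.77 and 0.31 log2 CPM, from 62, 75, 15 and 43 reads. The ranges did not overlap, as was the case for 37.8% of all genes between these groups. The litter responses were 3.93, 3.16, 2.90 and 2.23 log2 units, with a mean of 3.05 ± 0.70 (SD, n = 4). In the edgeR fit Tslp rose in WT by 3.49 log2 units (standard error 0.57, adjusted p = 0.000616), in a comparison that called 43.9% of all 16066 genes tested.

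In Nlrx1-/- vehicle Tslp stood at -4.13, -2.02, -2.19 and -2.74 log2 CPM in litters 1 to 4, from 0, 7, 6 and 4 reads. Litters 2 to 4 lay within the WT vehicle range and litter 1, without a read, below it, and the difference between genotypes was -0.18 log2 units (standard error 1.19, adjusted p = 0.955 from edgeR). With so few reads, a difference in unstimulated cells was not detectable at this depth. In Nlrx1-/- LPS + IFNγ Tslp reached 3.84, 5.69, 1.75 and 4.99 log2 CPM, from 483, 1430, 118 and 1065 reads. All 4 values were above the highest WT value, and litter 3 was the closest to it.

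The litter responses of Tslp in Nlrx1-/- cells were 7.96, 7.71, 3.94 and 7.73 log2 units, with a mean of 6.84 ± 1.93 (SD, n = 4). The value of litter 1 is set by the constant that stands for 0 vehicle reads. Litter 3 had the lowest value, level with the strongest WT litter at 3.93, and it also had the lowest Nlrx1 of its group, at 1.84 log2 CPM in vehicle and 1.09 after stimulation. The part of the Nlrx1 level in the Tslp response was not tested. The mean response was 3.78 log2 units above that of WT. The fitted response was 7.65 log2 units (standard error 0.54), the fitted difference from WT in LPS + IFNγ was 4.00 (standard error 0.70), and the fitted difference between the responses was 4.16 (standard error 0.99). These 3 values belong to the choice of the gene and carry no test. Of all genes, 32% had no overlap between Nlrx1-/- vehicle and stimulated libraries, 13.3% none between the stimulated genotypes, and 8.31% none between the litter responses of the genotypes.

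Because the deposited log2 values hold a constant that weighs on genes with few reads, reads scaled to each library's assigned total were compared within litters as well, a choice made after the values were seen. In WT the stimulated library held 20.7-fold more Tslp reads in litter 1 (95% exact interval 6.77 to 103.0) and 9.62-fold more in litter 2 (4.22 to 27.0). Litter 3 had a ratio of 22.3 (3.43 to 937.0) and litter 4 of 4.85 (2.25 to 11.9). In Nlrx1-/- litters 2, 3 and 4 the ratios were 238.0 (115.0 to 592.0), 18.2 (8.11 to 50.6) and 291.0 (113.0 to 1070). Litter 1 had no vehicle read, and against a floor of 3 reads its stimulated level was at least 156.0-fold higher. The ratio of Nlrx1-/- litter 3 lay within the WT range of 4.85 to 22.3, whereas the ratios of litters 2 and 4 and the bound of litter 1 lay above it. The intervals cover counting error only.

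The few vehicle reads of Tslp were mostly not those of its protein-coding transcript. Salmon divided Tslp between a protein-coding and a non-coding RefSeq transcript, and it placed 14 of 18 reads in WT vehicle (77.8%) and all 17 reads in Nlrx1-/- vehicle on the non-coding one. After stimulation the protein-coding transcript held 80.0% of 195 reads in WT and 94.1% of 3096 reads in Nlrx1-/- cells. Per library the protein-coding transcript had 0 to 3 reads in WT vehicle and 15 to 66 in WT LPS + IFNγ, and 0 in Nlrx1-/- vehicle and 108 to 1352 in Nlrx1-/- LPS + IFNγ. The levels and responses given for Tslp sum both transcripts, so their vehicle baseline is largely the non-coding one. The split is an estimate from few reads, and no test was made on it.

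**Figure D1:**
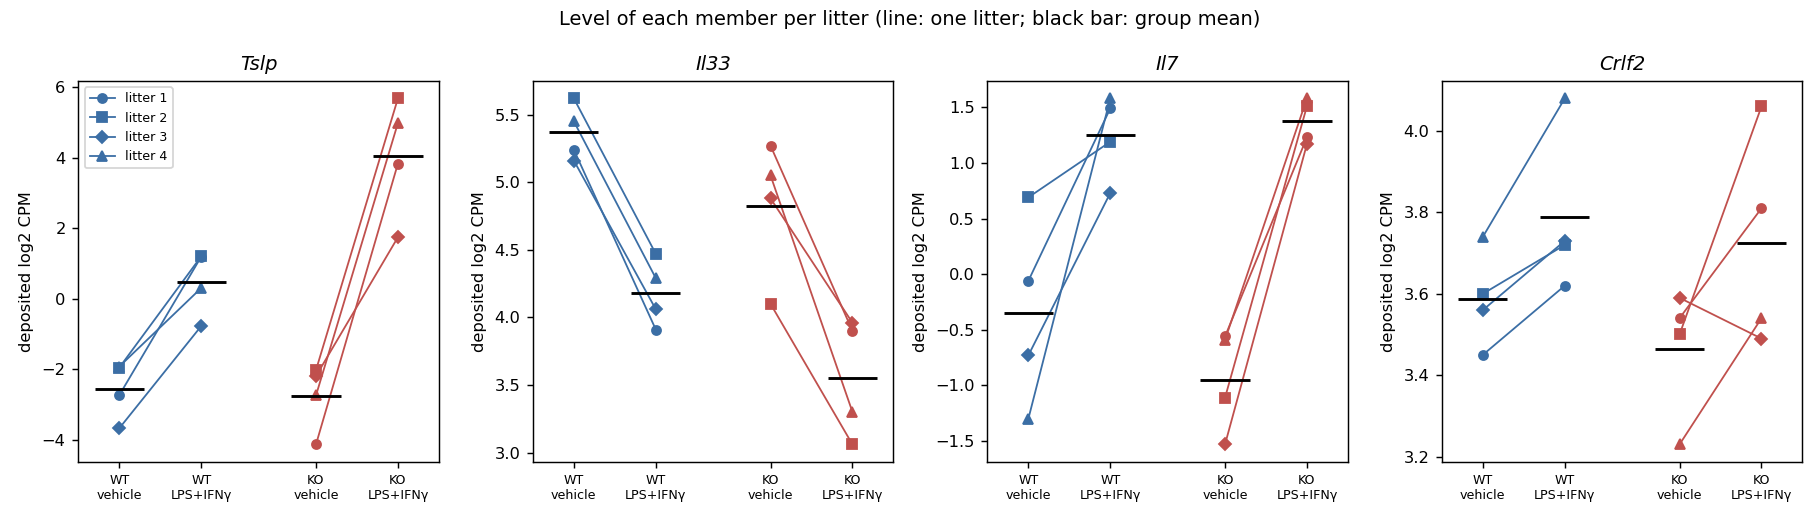
Deposited log2 CPM (vertical axis) of Tslp, Il33, Il7 and Crlf2 in vehicle and LPS + IFNγ libraries of WT (blue) and Nlrx1-/- (KO, red) astrocytes, with one line per litter, a marker shape per litter number and black bars for group means (n = 4). Tslp and Il7 are higher and Il33 is lower in the stimulated library of every litter, and the vertical scales differ between panels.

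Il33 moved the opposite way. Its level in WT vehicle was 5.24, 5.62, 5.16 and 5.45 log2 CPM in litters 1 to 4, and in WT LPS + IFNγ 3.91, 4.47, 4.06 and 4.29. Every stimulated WT library was below every vehicle one, in a comparison where 37.8% of all genes had no overlap. The 4 litters moved by nearly the same amount, with a mean of -1.18 ± 0.10 log2 units (SD, n = 4). The edgeR fit gave a change in WT of -1.19 log2 units (standard error 0.12, adjusted p = 2.48e-05). Oligodendrocyte lineage RNA, from cells known to make IL-33, was lower in the same libraries, with 9 markers summing to 2360 to 2740 TPM in WT vehicle and 1810 to 2030 TPM in WT LPS + IFNγ. In Nlrx1-/- cells the sums were 2520 to 2850 and 1340 to 1930 TPM. Olig1 made up most of these sums, so they followed the myelin genes poorly. In Nlrx1-/- vehicle litter 2 Olig1 was at 2570 TPM, while Mbp, a myelin protein gene, was at 4.94 TPM. In WT Mbp was at 85.7 to 221.0 TPM in vehicle and 23.6 to 103.0 TPM after stimulation. The part of these cells in the lower Il33 was not tested.

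In Nlrx1-/- vehicle Il33 was at 5.27, 4.10, 4.88 and 5.05 log2 CPM, and after LPS + IFNγ at 3.90, 3.06, 3.96 and 3.30. The litter responses were -1.37, -1.05, -0.93 and -1.75, and the fitted response was -1.29 log2 units (standard error 0.12, adjusted p = 1.34e-05 from edgeR), in a comparison that called 49.4% of the genes tested. The response differed between genotypes by -0.11 log2 units (standard error 0.17, adjusted p = 0.807 from edgeR). The size of this difference was below the SD of the Nlrx1-/- litter responses, 0.37, and near that of the WT ones, 0.10. The exact permutation test of the litter responses, two-sided over 4 against 4 litters and able to reach 0.0286 at the lowest, gave p = 0.743, unadjusted and one of 3 such tests.

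Between genotypes, Il33 differed by -0.48 log2 units (Nlrx1-/- minus WT) in vehicle libraries, with a standard error of 0.23 and an adjusted p of 0.257 from edgeR. Among stimulated libraries the difference was -0.60, with a standard error of 0.24 and an adjusted p of 0.111. Neither passed the test, and the ranges overlapped in both treatments. Ranges without overlap between the genotypes were found for 9.45% of all genes in vehicle. The calls made up 5.03% of the genes tested in LPS + IFNγ, 808 genes, a count that fell to 3 without Nlrx1-/- litters 2 and 4 and ranged from 1 to 3333 with single litters left out. In vehicle edgeR called 0 genes (0.0%), with 3152 at an unadjusted p below 0.05, whereas DESeq2 called 455 higher and 280 lower and limma on the deposited values 0 higher and 1 lower.

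Il33 has a pair of RefSeq promoter windows, 20677 bases apart, and Salmon split its reads between transcripts that begin at them. The transcript of 2538 bases was placed at the upstream start and that of 2558 bases at the downstream start, because their lengths differ by the same 20 bases as the first exons, of 49 and 69 bases. These transcripts took 90.1% and 7.28% of all Il33 reads. The 250 bases before each start are printed because the results below differ between the starts. They were read from the RefSeq table of GRCm38.p6 promoters and located by sequence in GRCm39, on the plus strand of chromosome 19, where both lie before the first coding exon. Capitals mark TATAAA.
Il33 upstream start, chr19:29902263-29902512: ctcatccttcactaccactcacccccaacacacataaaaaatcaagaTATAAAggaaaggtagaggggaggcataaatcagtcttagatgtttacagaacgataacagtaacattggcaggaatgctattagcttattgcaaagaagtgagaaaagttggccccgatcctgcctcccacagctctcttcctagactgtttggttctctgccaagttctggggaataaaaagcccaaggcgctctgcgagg
Il33 downstream start, chr19:29922940-29923189: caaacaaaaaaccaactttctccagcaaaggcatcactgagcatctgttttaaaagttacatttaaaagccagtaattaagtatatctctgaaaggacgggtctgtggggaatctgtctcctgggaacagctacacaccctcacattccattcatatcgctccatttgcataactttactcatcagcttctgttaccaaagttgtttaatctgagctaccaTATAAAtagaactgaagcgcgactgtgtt

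The downstream window holds TATAAA from position -29 to -24 relative to its start, and the upstream window holds it from -203 to -198. TATAAA, on either strand, is in 12.4% of the 32851 promoter windows of this length. The letters GGGNNNNNCC (an NF-κB site, in 45.8% of windows), TTCNNNGAA (a gamma-activated site, 7.02%), GAAANNGAAA (an interferon-stimulated element, 2.98%) and TGANTCA (an AP-1 site, 6.75%) were in neither Il33 window. A match is a description of letters, and its absence says nothing about a factor. Crlf2 has 1 window in the table, and it is not printed since Crlf2 varied little. Tslp and Il7 have no entry there.

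The upstream transcript made up most of Il33 in every vehicle library and was lower in the stimulated library of every litter. It was at 36.3, 43.7, 30.0 and 38.5 TPM in WT vehicle and at 11.1, 14.6, 12 and 15.7 TPM in WT LPS + IFNγ, litters 1 to 4. In Nlrx1-/- cells it was at 35.6, 13.5, 24.0 and 28.3 TPM in vehicle and 10.7, 3.30, 11.8 and 3.93 TPM after stimulation. The downstream transcript stayed between 0 and 3.77 TPM in all 16 libraries, and its groups overlapped. Its share of the reads of the pair was 0.815% to 9.25% in WT vehicle and 2.33% to 12.8% in WT LPS + IFNγ. In Nlrx1-/- cells it was 0.0% to 13.1% in vehicle and 13.4%, 44.7%, 6.30% and 49.2% after stimulation. The high shares were in litters 2 and 4, where the upstream transcript was lowest. These splits are Salmon estimates between transcripts with most of their sequence in common, and no test was made.

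**Figure D2:**
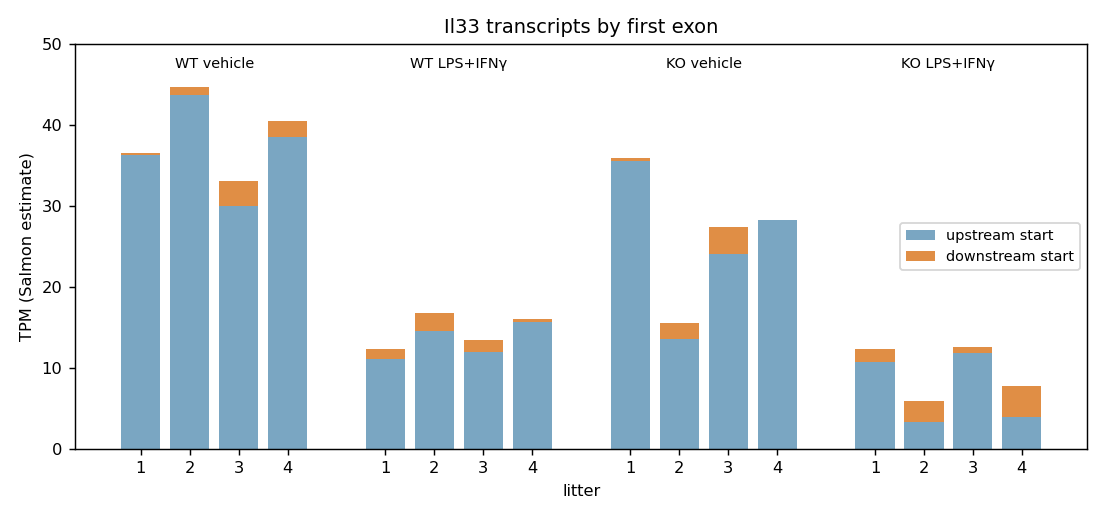
TPM (vertical axis, from 0) of the Il33 transcripts that begin at the upstream (blue) and downstream (orange) start, stacked for each library by group and litter. The upstream part shrinks in every litter on stimulation, and in Nlrx1-/- litters 2 and 4 44.7% and 49.2% of the reads of the pair are assigned to the downstream transcript.

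Il7, a cytokine known for sustaining lymphocytes, was low and rose with stimulation. In WT vehicle it was at -0.06, 0.69, -0.73 and -1.30 log2 CPM, and in WT LPS + IFNγ at 1.49, 1.19, 0.73 and 1.58. Litter 2 started highest and moved least, by 0.50, and litter 4 started lowest and moved most, by 2.89. In Nlrx1-/- vehicle the values were -0.56, -1.11, -1.53 and -0.59, and in Nlrx1-/- LPS + IFNγ 1.23, 1.51, 1.17 and 1.58. The groups did not overlap between treatments in either genotype, and the stimulated Nlrx1-/- libraries lay within the stimulated WT range.

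By edgeR, Il7 rose by 1.63 log2 units in WT (standard error 0.40, adjusted p = 0.00739), where 43.9% of all genes tested were called. In Nlrx1-/- cells it rose by 2.42 (standard error 0.41, adjusted p = 0.000633), where 49.4% were called. The responses differed by 0.79 (standard error 0.56, adjusted p = 0.531 from edgeR), and the exact permutation test of the litter responses gave p = 0.229. In the stimulated cells the genotypes differed by 0.08 log2 units (standard error 0.38, adjusted p = 0.910 by edgeR). For vehicle the difference was -0.78 (standard error 0.41, adjusted p = 0.297). The Il7 values rest on 11 to 45 reads in vehicle and 45 to 110 reads after stimulation.

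Crlf2, which encodes the chain that binds TSLP, was present at a moderate level throughout. In WT it lay between 3.45 and 3.74 log2 CPM before and between 3.62 and 4.08 after stimulation. In Nlrx1-/- cells it lay between 3.23 and 3.59 before and between 3.49 and 4.06 after stimulation. The groups overlapped in every comparison. The fitted response was 0.21 log2 units in WT (standard error 0.11, adjusted p = 0.157 by edgeR). For Nlrx1-/- cells it was 0.25 (standard error 0.11, adjusted p = 0.0864), and neither passed the threshold. Without Nlrx1-/- litter 3, the one litter in which Crlf2 was lower after stimulation, at -0.10, the response in Nlrx1-/- cells was 0.36 (adjusted p = 0.0244 from edgeR). The genotypes differed by -0.11 in vehicle (adjusted p = 0.688 from edgeR) and -0.07 after stimulation (adjusted p = 0.780 from edgeR). The responses differed between genotypes by 0.04 log2 units (adjusted p = 0.935 from edgeR), and the exact permutation test gave p = 0.714.

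For the difference between the responses of the genotypes, edgeR called 0 of 16066 genes (0.0%), with 2469 at an unadjusted p below 0.05, and limma on the deposited values also called 0. DESeq2 called 111 genes with a higher and 185 with a lower response in Nlrx1-/- cells. For Il33, Il7 and Crlf2 a difference between the responses was not detectable with 4 litters per genotype.

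**Figure D3:**
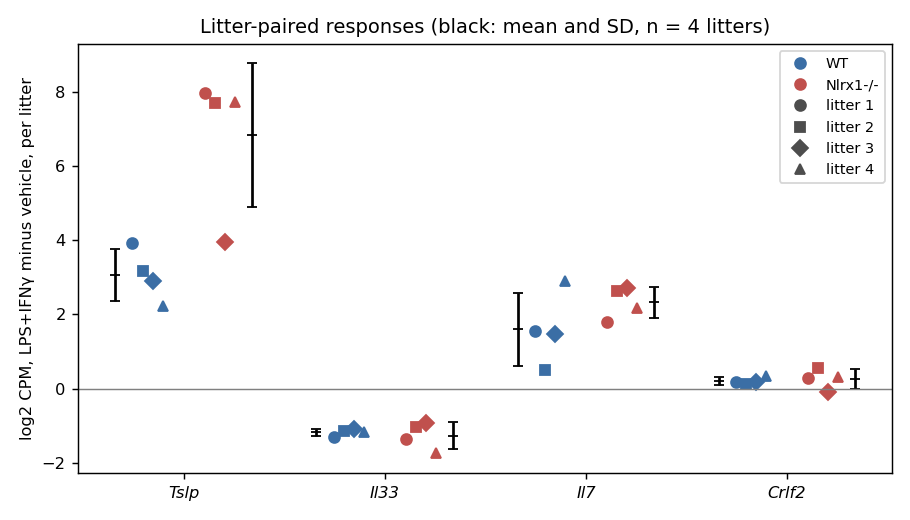
Litter-paired responses, as log2 CPM in LPS + IFNγ minus log2 CPM in vehicle (vertical axis), for each gene in WT (blue) and Nlrx1-/- (red) astrocytes, one marker per litter, with the mean and SD of 4 litters in black. The WT and Nlrx1-/- litters overlap for Il33, Il7 and Crlf2, and the Tslp responses of 3.94 in Nlrx1-/- litter 3 and 3.93 in WT litter 1 lie side by side.

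Per transcript length the order of the genes changed with the treatment. In WT vehicle Il33 was highest at 39.6 ± 4.85 TPM (SD, n = 4), followed by Crlf2 at 18.1 ± 1.02, and these did not overlap. Il7 at 0.757 ± 0.474 TPM and Tslp at 0.348 ± 0.238 came last and overlapped each other. In WT LPS + IFNγ Crlf2 at 18.2 ± 2.81 TPM and Il33 at 15.1 ± 2.26 overlapped, and so did Tslp at 3.56 ± 1.95 and Il7 at 1.86 ± 0.502.

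In Nlrx1-/- vehicle the order was Il33 at 27.4 ± 8.76 TPM, Crlf2 at 16.2 ± 1.81, Il7 at 0.418 ± 0.143 and Tslp at 0.280 ± 0.213, where the first pair overlapped and the last pair did too. In Nlrx1-/- LPS + IFNγ the TPM of Tslp was 32.8, 112.0, 7.70 and 70.1 in litters 1 to 4. Tslp was above the Crlf2 range of 14.7 to 20.7 TPM in litters 1, 2 and 4 and below it in litter 3. Il33 at 9.93 ± 3.27 TPM lay under Crlf2 without overlap, and Il7 was at 1.95 ± 0.223 TPM.

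**Figure D4:**
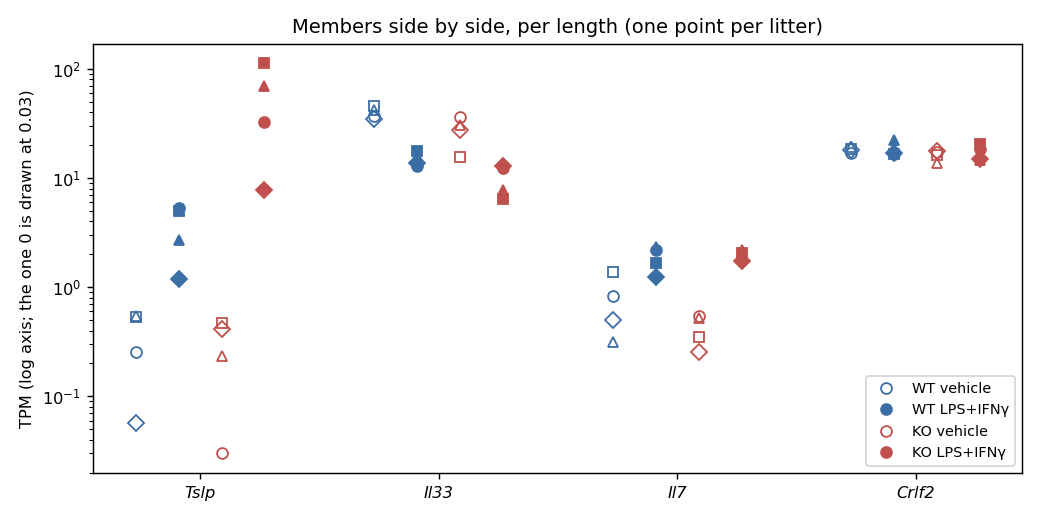
TPM (vertical, log axis) of the 4 genes in WT (blue) and Nlrx1-/- (red) libraries, open for vehicle and filled for LPS + IFNγ, one marker per litter. Tslp spans 0 to 112.0 TPM, while Crlf2 stays between 13.6 and 22.4.

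The litters of the Nlrx1-/- group were unequal in marker genes of several cell types, and in the stimulated libraries Tslp and Il33 moved along with them. In vehicle Il33 was lowest in litter 2, at 4.10 log2 CPM. In vehicle litter 4, with Mbp at 7.23 TPM, it was at 5.05, above the 4.88 of litter 3 with Mbp at 137.0 TPM. Tslp had 0 to 7 reads in these vehicle libraries, too few to follow. In litters 2 and 4, which had the highest stimulated Tslp and the lowest stimulated Il33, Mbp, a myelin protein gene, was at 0.887 and 1.27 TPM after stimulation, against 9.42 to 103.0 TPM in the other 6 stimulated libraries. Of the 9 oligodendrocyte lineage markers, 8 were lower in both of these stimulated libraries than in each of the other 6. In vehicle 6 were lower in both, while Olig1, a lineage factor gene, was higher in both, at 2570 and 2390 TPM against 1550 to 2150. Of the 9 astrocyte markers this held for 7 in stimulated and 5 in vehicle libraries, against 18.2% and 14.1% of all genes. In vehicle it also held for 5 of 7 ependymal and 5 of 8 fibroblast and meningeal markers, and after stimulation for 2 and 0 of them. Gfap, the astrocyte filament gene, was at 124.0 and 249.0 TPM in vehicle libraries of litters 2 and 4 and at 569.0 to 2060 TPM in the other 6. Summed over the 9 astrocyte markers, the level was 3650 to 6150 TPM in WT vehicle, 3120 to 4660 in WT LPS + IFNγ, 2620 to 4430 in Nlrx1-/- vehicle and 2480 to 3560 in Nlrx1-/- LPS + IFNγ. Slc1a3, an astrocyte glutamate transporter gene, differed little, with values at 1170 and 1100 TPM in stimulated litters 2 and 4 and 1100 to 1320 TPM in the others.

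Across the 8 stimulated libraries, the 3 with the least Mbp (Nlrx1-/- litters 1, 2 and 4) had the most Tslp. The lowest Tslp was in WT litters 3 and 4, which had the most Mbp at 89.0 and 103.0 TPM. Nlrx1-/- litter 3, whose Tslp of 1.75 log2 CPM was the nearest to WT, had Mbp at 32.8 TPM, close to the 23.6 and 28.0 TPM of WT litters 1 and 2. This order was noticed after the values were seen, and it is a description over 8 libraries of which 4 share each genotype. The part of these markers in the Tslp level was not tested. Leaving out Nlrx1-/- litters 2 and 4 was an alternative chosen after the marker levels were seen. These litters also had the highest stimulated Tslp and the lowest stimulated Il33. Leaving them out therefore shrinks both stimulated differences whatever the markers do, and it is no test of the markers. The stimulated Tslp difference between genotypes was then 2.48 log2 units (standard error 0.70) in place of 4.00. The Tslp response in Nlrx1-/- cells was 6.36 in place of 7.65, and the difference between the responses was 2.85 (standard error 1.24) in place of 4.16. Without these litters the Il33 difference between genotypes was -0.28 in both treatments, with adjusted p = 0.717 in vehicle and 0.548 after stimulation from edgeR.

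**Figure D5:**
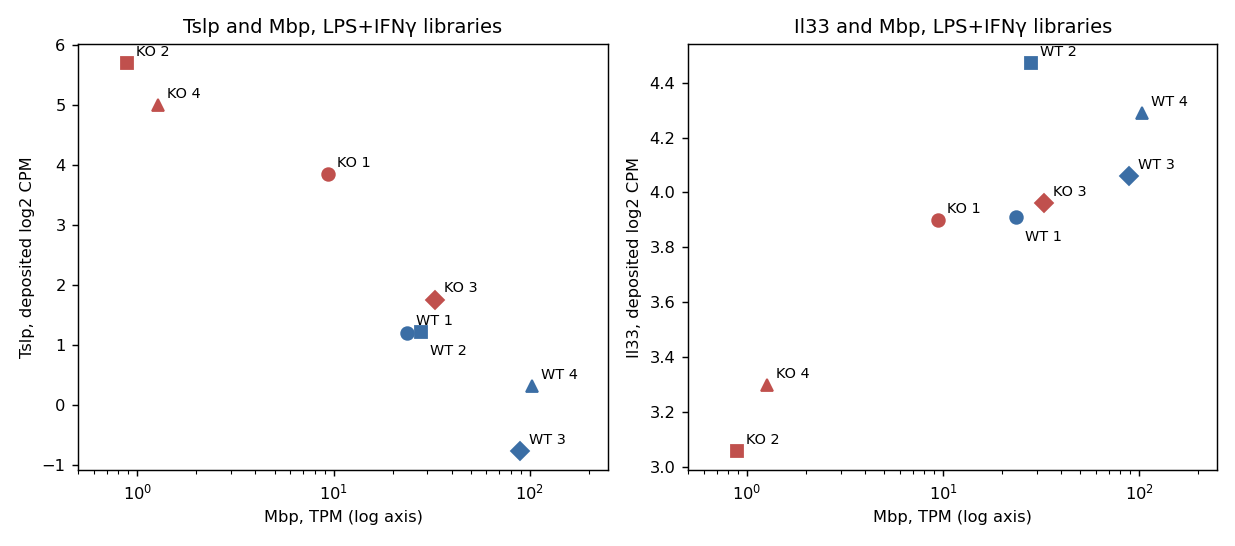
Deposited log2 CPM of Tslp (left) and Il33 (right) against Mbp in TPM (horizontal, log axis) in the 8 LPS + IFNγ libraries, labelled by genotype and litter (KO is Nlrx1-/-). Nlrx1-/- litters 2 and 4, at 0.887 and 1.27 TPM of Mbp, have the highest Tslp and the lowest Il33.

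Tslp and IL-7 signalling genes were measured in the same cells. Il7r, the second chain of the TSLP receptor, had 0 reads in all 16 libraries, a count that allows up to 3 reads per library. Il2rg, the common γ chain, had 0 to 18 reads. Il1rl1, the IL-33 receptor, had 0 to 9 reads, while its partner Il1rap was at 10.3 to 27.7 TPM. Of 11 genes in the list of TSLP and IL-7 receptor chains with JAK kinases and STATs, 10 were tested. In WT 7 rose and 0 fell, with a median change of 0.67 log2 units, and in Nlrx1-/- cells 9 rose and 0 fell, with a median of 0.86. The medians over all genes tested were -0.02 and -0.03. Of all genes, 23.7% rose and 20.2% fell in WT, and 25.3% rose and 24.2% fell in Nlrx1-/- cells, which is the background for the counts of the gene lists that follow. Stat5b, a factor below the TSLP receptor, rose by 1.03 in WT (adjusted p = 2.49e-07 from edgeR).

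Of 9 tested STAT5 target and feedback genes, 5 rose and 1 fell in WT, and 6 rose and 0 fell in Nlrx1-/- cells, with medians of 0.43 and 0.88 log2 units, beside 43.9% and 49.4% of all genes called in either direction. Socs1, a feedback inhibitor of JAK kinases, rose by 6.22 log2 units in WT (adjusted p = 1.53e-09 from edgeR), Pim1, a survival kinase, rose by 1.46, and Socs2 fell by 1.09, a call lost without WT litter 2 or WT litter 4. Cish, a classic STAT5 target, changed by 0.06 in WT (adjusted p = 0.868 from edgeR) and rose by 0.88 in Nlrx1-/- cells (adjusted p = 0.00995 from edgeR), with a difference between stimulated genotypes of 0.79 (adjusted p = 0.0532 from edgeR). That difference passed with DESeq2 (adjusted p = 0.0111), with limma (0.041), with the replicate number as a block (0.0358 from edgeR) and without Nlrx1-/- litter 3 (0.0314 from edgeR). These were the only passes among 16 alternatives. Without Nlrx1-/- litters 2 and 4 the difference was 0.65 (adjusted p = 0.421 from edgeR). The Cish response in Nlrx1-/- cells was then 0.70 (adjusted p = 0.14 from edgeR). Of 8 tested IL-33 signalling genes, 3 rose and 2 fell in WT and 4 rose and 1 fell in Nlrx1-/- cells, with medians of 0.05 and 0.23, again beside 43.9% and 49.4% of all genes. Myd88, the adaptor of this receptor family, rose by 2.54 in WT, Irak3, an inhibitor in the same pathway, fell by 1.93, a call lost under 8 alternatives, and Irak2 rose by 0.76. Irak3 was near the floor, with 0 to 32 reads per library. Il1rap was the one gene of these lists called between the stimulated genotypes, with a level 0.68 log2 units higher in Nlrx1-/- cells (adjusted p = 0.0488 from edgeR). This difference was 0.24 (adjusted p = 0.548) without Nlrx1-/- litters 2 and 4, and the call was also lost without Nlrx1-/- litter 2, Nlrx1-/- litter 4 or any single WT litter, without the filter on low counts and with the 8 stimulated libraries alone.

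Read against the same background, 9 of 14 transcription factors reported at the TSLP promoter rose and 1 fell in WT and 10 rose and 0 fell in Nlrx1-/- cells, with medians of 0.94 and 1.09 and 0 called between the stimulated genotypes by edgeR. The largest rises in WT were those of Irf1, an interferon-induced factor, by 5.80 log2 units, Vdr, the vitamin D receptor, by 3.78, and Atf3, a stress factor, by 2.19. Vdr was low, with 3 to 123 reads per library. Of 5 tested alarmins and danger signals, 1 rose and 1 fell in WT, Il18 by 0.49 and Hmgb1, a nuclear protein released on damage, by 0.15, the latter a call lost under 5 alternatives. The medians of these 5 genes were 0.09 in WT and 0.26 in Nlrx1-/- cells, where 2 rose and 1 fell, and the count in WT is near the 43.9% of all genes called. Of 6 tested proteases and nuclear partners of IL-33, 3 rose and 0 fell in WT (median 0.22) and 4 rose and 1 fell in Nlrx1-/- cells (median 0.34), with Casp1, the inflammasome protease, at 5.37 log2 units in WT. Of 3 listed IL-25 receptor genes, Il17rb had 0 to 13 reads and was not tested. Of the 2 tested, with medians of 0.37 in WT and 0.42 in Nlrx1-/- cells, 1 rose in each genotype. This was Traf3ip2, the adaptor of the receptor, which rose by 1.00 in WT. Il17ra, a receptor chain, changed by -0.26 in WT and -0.13 in Nlrx1-/- cells, without a call. Of 4 tested type 2 cytokine partners, 3 rose in WT and 4 in Nlrx1-/- cells, at medians of 0.70 and 1.38, with Il13ra1, an IL-13 receptor chain, at 1.53 and 2.58. Il13 had 0 reads in every library.

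The genes whose levels ran closest to each member were searched among 12530 genes over all 16 libraries, which share litters and treatments, and the values are descriptions. For Tslp they were Caprin1 (Pearson r = 0.98), Susd6 and Gdi2 (0.97 each) and Prrc2b and Rgs7 (0.96 each). For Il33 they were Apcdd1, Pgpep1 and Ric3, all at 0.98. For Il7 they were Reps2 (0.94), Tigd2 (0.93) and Fam13a (0.92), and for Crlf2 Ostm1 (0.85), Secisbp2l and Mark4 (0.82 each). Mean Rgs7 went from 2.57 log2 CPM in vehicle to 3.87 in stimulated WT libraries and from 2.94 to 4.79 in the Nlrx1-/- ones. For Apcdd1 the means were 5.91 and 3.76 in WT, and 5.11 and 2.66 in Nlrx1-/- libraries. A high r does not mean a change of like size. Mean Caprin1 went from 8.99 to 9.16 in WT and from 9.02 to 9.33 in Nlrx1-/- libraries. Mean Ric3 went from 5.76 to 5.43 and from 5.61 to 5.26.

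In GENCODE M39 on GRCm39, Tslp is on chromosome 18, plus strand, from 32948436 to 32952850, and Il33 on chromosome 19, plus strand, from 29902483 to 29938933. Il7 is on chromosome 3, minus strand, from 7635054 to 7678825. Crlf2 is on chromosome 5, minus strand, from 109702571 to 109706990. The values are sums over whole genes.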

How the data were processed

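RNA was captured by poly-A, libraries were not strand-specific, and 16 were sequenced as paired ends. The authors quantified RefSeq transcripts of GRCm39 with Salmon 1.7.0 and deposited expected counts, TPM and effective lengths per transcript. The log2 CPM values were deposited by the authors from limma 3.58.1, with a constant of 0.057 CPM for a library with 0 reads. Groups came from the labels (0 libraries unassigned, 0 columns unmatched), and litters from the study's methods. The members and gene lists were chosen with earlier results of these data known.

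Expected counts were rounded and summed per gene over the 106440 of 129698 transcripts paired with a RefSeq symbol, covering 96.72% to 97.27% of the reads. They were tested with edgeR 4.0.16 in R 4.3.3 (quasi-likelihood, TMM, length offsets, minimum count 10, Benjamini-Hochberg, threshold 0.05). Standard errors are the fold change over the root of the F statistic. Responses and their difference had litter terms as in the study's design, and genotypes were compared without them. Same-litter libraries correlated at 0.07 to 0.35 in deviations from group means, other litters at a median of -0.06. DESeq2 1.42.0, limma, other normalization, offsets and filters, and leaving out each litter were alternatives. The fits were run on simulated counts that held no litter effects, and without length offsets, so those parts were not tested. P-values of the responses and their differences measure the spread of the responses between litters. Those between genotypes use a spread shared by all 16 libraries, with the vehicle and stimulated libraries of a litter taken as independent. Named genes are the members, Nlrx1, up to 3 called genes per list with the largest WT response and the most alike genes, of which some are not reported here, and markers, Stat5b, Cish, Il1rap and the receptor chains were named after their values were seen.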

Additional observations from a re-analysis of the deposited data

How the results depend on the processing

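Of 306 values of the 4 genes under alternatives, 304 stayed on their side of the threshold or, without a test, moved by less than the spread between litters, 1 crossed the threshold and 1 moved by more than that spread. The one that crossed was the Crlf2 response in Nlrx1-/- cells without litter 3. With single litters left out, that response ranged from 0.15 to 0.36. The one that moved was the stimulated Tslp difference between genotypes without Nlrx1-/- litters 2 and 4, at 2.48 instead of 4.00. A drop was fixed in advance there, since these litters had the highest stimulated Tslp. With single litters left out it ranged from 3.38 to 4.36, and the Tslp response from 3.17 to 3.98 in WT and from 7.30 to 8.41 in Nlrx1-/- cells. The difference of the Tslp responses ranged from 3.69 to 4.92, and it was 2.85 without Nlrx1-/- litters 2 and 4 together. The Il33 response ranged from -1.21 to -1.13 in WT and from -1.43 to -1.13 in Nlrx1-/- cells. The Il7 response ranged from 1.20 to 2.04 and from 2.27 to 2.62. Among results that passed no test, signs changed under alternatives for Tslp between vehicle genotypes (3 of 15), for Il33 and Crlf2 response differences, and for Il7 and Crlf2 between stimulated genotypes. DESeq2 gave no adjusted p for the Il7 response difference. Whether equal replicate numbers mark a shared preparation of both genotypes is not given in the labels. The paper states that pups of both genotypes were born on one day. Across genotypes, libraries of equal number and treatment correlated at -0.09 to 0.18, and same-litter libraries at 0.07 to 0.35. These overlapping values do not settle it. With this number as a replicate block, the Il33 difference between stimulated genotypes was -0.63 (adjusted p = 0.105 from edgeR), that of Tslp 3.68, and no call on a member changed. For other named genes, 303 of 332 values stayed on their side of the threshold, 25 calls were lost and 4 gained, all 4 of them for Cish between stimulated genotypes. Between stimulated genotypes the 808 calls became 2438 with DESeq2, 1471 with limma, 2206 with the replicate block, 0 with the 8 stimulated libraries alone (4170 at an unadjusted p below 0.05), 3 without Nlrx1-/- litters 2 and 4, and 1 to 3333 with single litters left out (3333 without Nlrx1-/- litter 3). Between vehicle genotypes 0 calls became 735 with DESeq2 and 0 to 1310 with single litters left out, and for the response differences 296 and 0 to 317. The cause was not tested. Depth limits Tslp in vehicle, with at most 8 reads per library.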
